A study of Mus musculus with 15 samples.

Results

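Glucose is taken up by membrane carriers, split to pyruvate by glycolysis, and from there either reduced to lactate and exported or oxidised in mitochondria, while the pentose phosphate pathway diverts glucose 6-phosphate to NADPH and ribose. The 34 genes described here cover those routes and were taken by exact name from the 23359 gene entries of the deposited comparisons. They comprise 2 glucose carriers, 15 enzymes from hexokinase to enolase, 3 kinase-phosphatases that set the level of fructose 2,6-bisphosphate, 4 genes of lactate formation and transport, 6 genes of pyruvate dehydrogenase and its kinases, and 4 pentose phosphate enzymes. Of these, 33 had an entry of their own. Eno1 stood in an entry merged with the predicted gene Gm5506, so its value is uncertain.

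Many of the steps can be run by more than 1 gene, and the copies differ in how they are regulated. Hexokinase 1 is bound to mitochondria and widely expressed, whereas hexokinase 3 is a myeloid form. Ldha makes the lactate dehydrogenase subunit that favours lactate formation, and Ldhb the subunit that favours the use of lactate. The pyruvate dehydrogenase kinases switch off the enzyme that commits pyruvate to oxidation. Blood stem cells are known for a strong reliance on glycolysis in the marrow.

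The RNA came from leukemia stem cells (LSC). Mice carried leukemia that models the blast crisis of chronic myeloid leukemia (bcCML), made with the human oncogenes BCR-ABL and NUP98-HOXA9. LSC were taken 12 days after transplantation from gonadal adipose tissue (AT), peripheral blood (BL), spleen (SPL) and bone marrow (BM). The fifth group was normal counterparts from bone marrow (NBM), to which the labels attach the same strain and treatment text. The mice were female and 3 months old, each group had 3 RNA-seq libraries, and the labels give neither a sort gate nor whether the 3 came from separate mice.

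All levels are the authors' FPKM, fragments scaled by gene length and by the depth of sequencing, with 1 pooled value per group. A value after ± is the standard deviation that the deposited bounds give for an FPKM, and the standard error that the test statistic gives for a fold. Folds are log2 of the first group named over the second, and a gene was called when its deposited q was below 0.05. There is no value per library, so no spread between replicates could be computed, and p-values may measure technical spread if the libraries of a group shared mice. The columns held 1.96e+07 estimated counts in AT, 1.95e+07 in BL, 8.96e+06 in SPL, 1.65e+07 in BM and 1.95e+07 in NBM.

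Marker levels differed between the groups and stand beside every result that follows. Of the stem and progenitor markers, 0 were called higher (7.24% of all tested genes) and 6 lower (15.5%) among 10 tested in AT over BM, by the authors' deposited table. Their summed level was 208 FPKM in AT, 383 in BL, 349.8 in SPL, 293 in BM and 385 in NBM. The list of 12 also holds Ptprc and Cd48. Kit and Cd34, given below, made a small part of the sum, which mostly reflects other genes of the list. The sum did not follow the calls in BL. In BL over NBM, 1 stem marker was called higher (11.5% of all tested genes) and 5 lower (22.9%) among 12 tested, by the authors' deposited table. BL over BM had 2 higher (10.5%) and 5 lower (22.8%) among 10 tested, by the authors' deposited table. Mature neutrophil markers summed to 3968 FPKM in AT, 1188 in BL, 691 in SPL, 881 in BM and 1577 in NBM. Macrophage and monocyte markers summed to 1069 FPKM in AT and 1450.0 in BL, against 220.2 in SPL, 227 in BM and 441 in NBM. In AT over BM, 5 of 9 neutrophil and 5 of 10 macrophage and monocyte markers tested were called higher (7.24% of all tested genes) and 0 lower (15.5%), by the authors' deposited table. Stromal markers summed to 29.5 FPKM in AT, 1.10 in BL, 2.34 in SPL, 2.86 in BM and 2.69 in NBM. Endothelial markers summed to 16.5 FPKM in AT, 24.5 in BL, 8.45 in SPL, 11.3 in BM and 14.7 in NBM. The T and NK cell sum was mostly Nkg7, at 129.6 FPKM in AT, 194 in BL, 329 in SPL, 203 in BM and 110.2 in NBM. Cd3e was at 0.210 FPKM in AT, 0.624 in BL, 1.99 in SPL, 0.415 in BM and 14.9 in NBM. Over NBM, 5 of the 6 T and NK cell markers were called lower in AT (15.5% of all tested genes) and in BL (22.9%), by the authors' deposited table. In SPL (6.19%) and in BM (7.85%) it was 4 of 6, by the authors' deposited table. B cell markers summed to 1.46 FPKM in AT, 4.56 in BL, 13.99 in SPL, 2.89 in BM and 21.1 in NBM. Erythroid markers summed to 770.2 FPKM in AT, 2484 in BL, 1411 in SPL, 1141 in BM and 164 in NBM. Of the defining stem cell genes, Kit had 1.64 FPKM in AT, 2.26 in BL, 4.10 in SPL, 2.93 in BM and 10.4 in NBM. Cd34 had 8.07 in AT, 7.92 in BL, 9.60 in SPL, 24.3 in BM and 39.97 in NBM, so neither Kit nor Cd34 was absent. Of the 12 stem and progenitor markers, 1 was under 0.1 FPKM in each of AT, BL and SPL, and 0 in BM and NBM. Adipocyte markers summed to 52.7 FPKM in AT, 36.6 in BL, 5.15 in SPL, 4.34 in BM and 4.58 in NBM. The defining adipocyte genes were near 0 in AT, with Adipoq at 0.0304, Lep at 0.00258 and Plin1 at 0.00696 FPKM. The part of these cell markers in the results was not tested.

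The genes were abundant and spanned a wide range. In sum they reached 1496 FPKM in AT, 1653 in BL, 2103 in SPL, 1846 in BM and 1681 in NBM, which was 0.905% to 0.984% of all FPKM in each group. Of the 34, 25 stood at 1 FPKM or more in all 5 groups and 4 were below 1 in all 5. Those 4 were Pfkfb2, Pdk1, Pdk2 and Pdk4, and the highest in AT, SPL, BM and NBM were Aldoa, Ldha and Eno1, while in BL Taldo1 stood above Ldha, as the plot of levels shows.

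**Figure D1:**
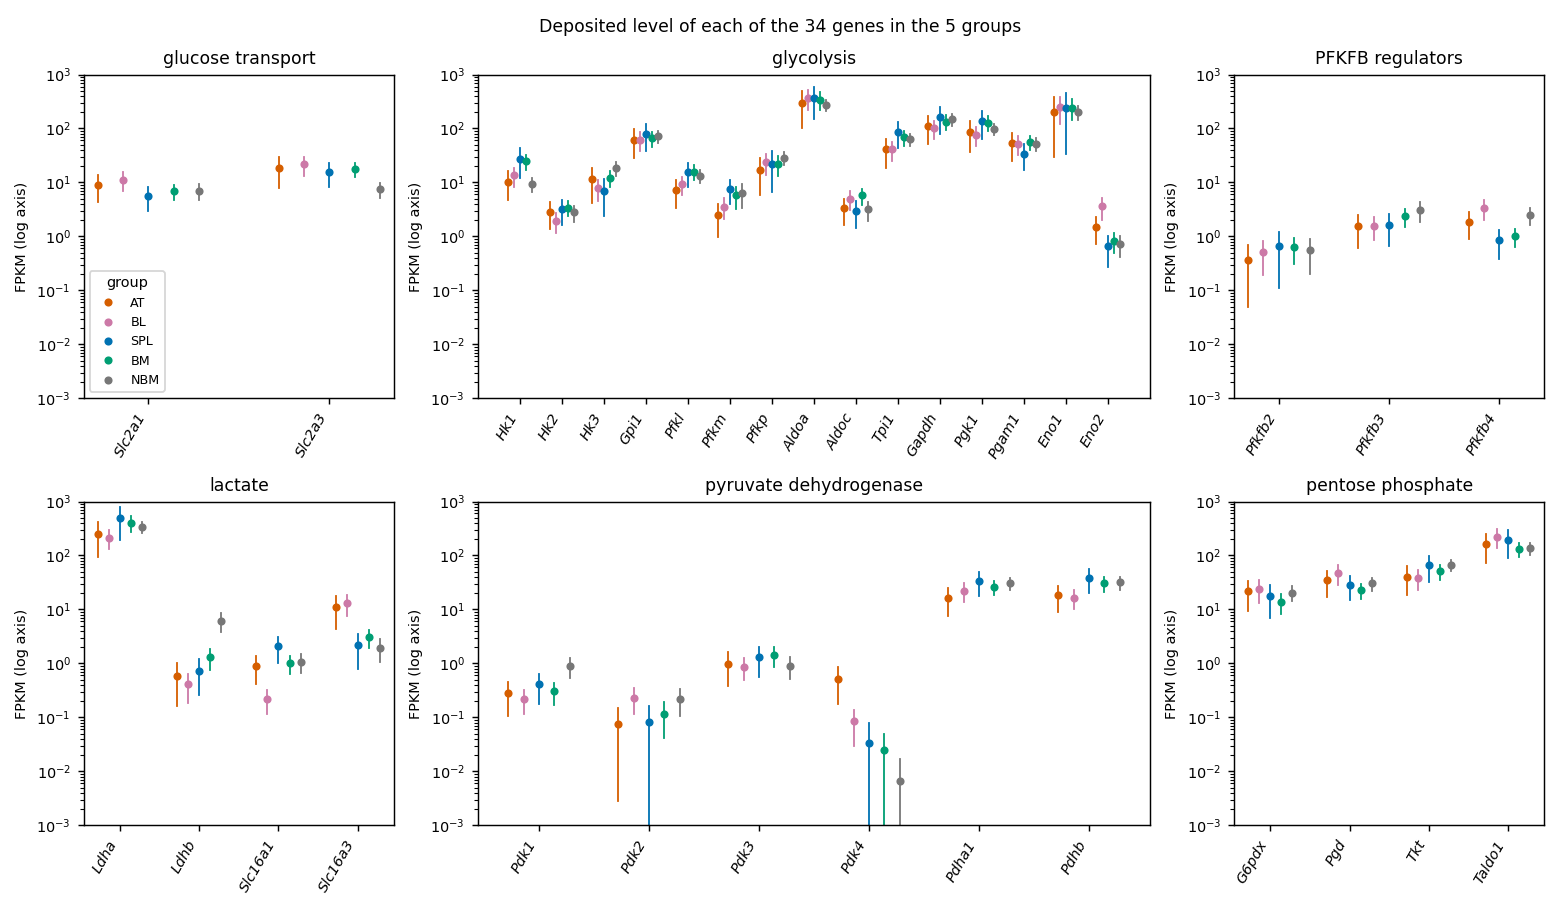
Each of the 34 genes is drawn at its deposited FPKM (log axis) in AT, BL, SPL, BM and NBM, in that order from left to right, with bars to the authors' lower and upper bounds, which lie 2 standard deviations away. Bounds under 0.001, 0 included, run to the foot of the axis. Ldhb stands highest in NBM at 6.13 FPKM, Slc16a3 highest in AT and BL at 11.1 and 12.9, and Pdk4 highest in AT at 0.523.

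Across the 10 comparisons of groups, 331 tests of these genes were made and 45 were calls, which is 13.6%, against 21.1% of the 127922 tests of all genes, by the authors' deposited table. The comparisons share groups, so these are not independent tests. In total 14 of the 34 genes were called in at least 1 comparison and 20 in none. Lactate genes took 15 of 40 tests, the pyruvate dehydrogenase group 10 of 51, the glucose carriers 4 of 20, the kinase-phosphatases 4 of 30, the 15 glycolytic enzymes 11 of 150, and the pentose phosphate enzymes 1 of 40. None of the 10 genes that reached 50 FPKM in any group was called in 100 tests (the authors' Cuffdiff test, with 10 at an unadjusted p below 0.05), a set picked after the values were seen. Standard errors of these genes were not larger than usual. Over the 34 genes the median standard error of a fold was 0.33 in BM over NBM and 0.55 in AT over SPL, where all tested genes had medians of 0.40 and 0.59.

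Against normal marrow, the counts of called genes were small at each site, and the 4 comparisons share NBM. In AT over NBM, 3 of 34 tested were called higher (7.94% of all tested genes) and 2 lower (15.5%), by the authors' deposited table. BL over NBM gave 3 higher (11.5% of all) and 5 lower (22.9%) of 33 by the same authors' deposited table. In SPL over NBM the authors' deposited table had 2 higher (6.37%) and 3 lower (6.19%) among 33. BM over NBM had 2 higher (8.17%) and 3 lower (7.85%) among 33, per the authors' deposited table. Counts of so few genes are near the share of all genes called in each direction or below it.

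Between sites, the calls were in pairs that included AT or BL. AT over BM had 2 genes higher (7.24% of all tested genes) and 2 lower (15.5%) among 33, per the authors' deposited table, and AT over SPL had 2 higher (7.2%) and 1 lower (17.9%) of 33. BL over BM had 4 higher (10.5%) and 3 lower (22.8%) among 33, per the authors' deposited table, and BL over SPL had 3 higher (10.2%) and 2 lower (23.1%) of 33. AT over BL had 2 higher (4.01%) and 1 lower (2.51%) of 34 by the authors' deposited table. SPL over BM had 0 calls (1.19% of all genes higher and 1.5% lower) among 32 tested by the authors' Cuffdiff test, with 2, Aldoc and Slc16a1, at an unadjusted p below 0.05.

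The median fold of all genes lay away from 0 in most comparisons. The median fold over all tested genes was -0.46 in AT over NBM, -0.36 in BL over NBM, 0.11 in SPL over NBM, -0.03 in BM over NBM, -0.48 in AT over BM, -0.52 in AT over SPL, -0.11 in AT over BL, -0.37 in BL over BM, -0.40 in BL over SPL and 0.12 in SPL over BM, by the authors' deposited table. The 34 genes had medians of -0.24, -0.20, 0.16, -0.03, -0.27, -0.34, -0.18, -0.31, -0.37 and 0.09 in the same order. With folds centred on the median of all genes, the calls over NBM became 4 higher (12.2% of all tested genes) and 1 lower (6.5%) in AT over NBM, 6 higher (16.4%) and 3 lower (13.9%) in BL over NBM, 1 higher (5.53%) and 3 lower (6.51%) in SPL over NBM and 2 higher (8.11%) and 3 lower (7.29%) in BM over NBM. Between sites they became 4 higher (11.8%) and 0 lower (5.06%) in AT over BM, 4 higher (11.1%) and 0 lower (6.92%) in AT over SPL and 2 higher (4.35%) and 0 lower (1.65%) in AT over BL. For BL and SPL they became 7 higher (15.6%) and 1 lower (13.5%) in BL over BM, 5 higher (14.7%) and 1 lower (14.5%) in BL over SPL and 0 higher (0.905%) and 0 lower (1.85%) in SPL over BM. In all comparisons of AT or BL with SPL, BM or NBM, centring raised the share of all genes called higher and lowered the share called lower as well.

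**Figure D2:**
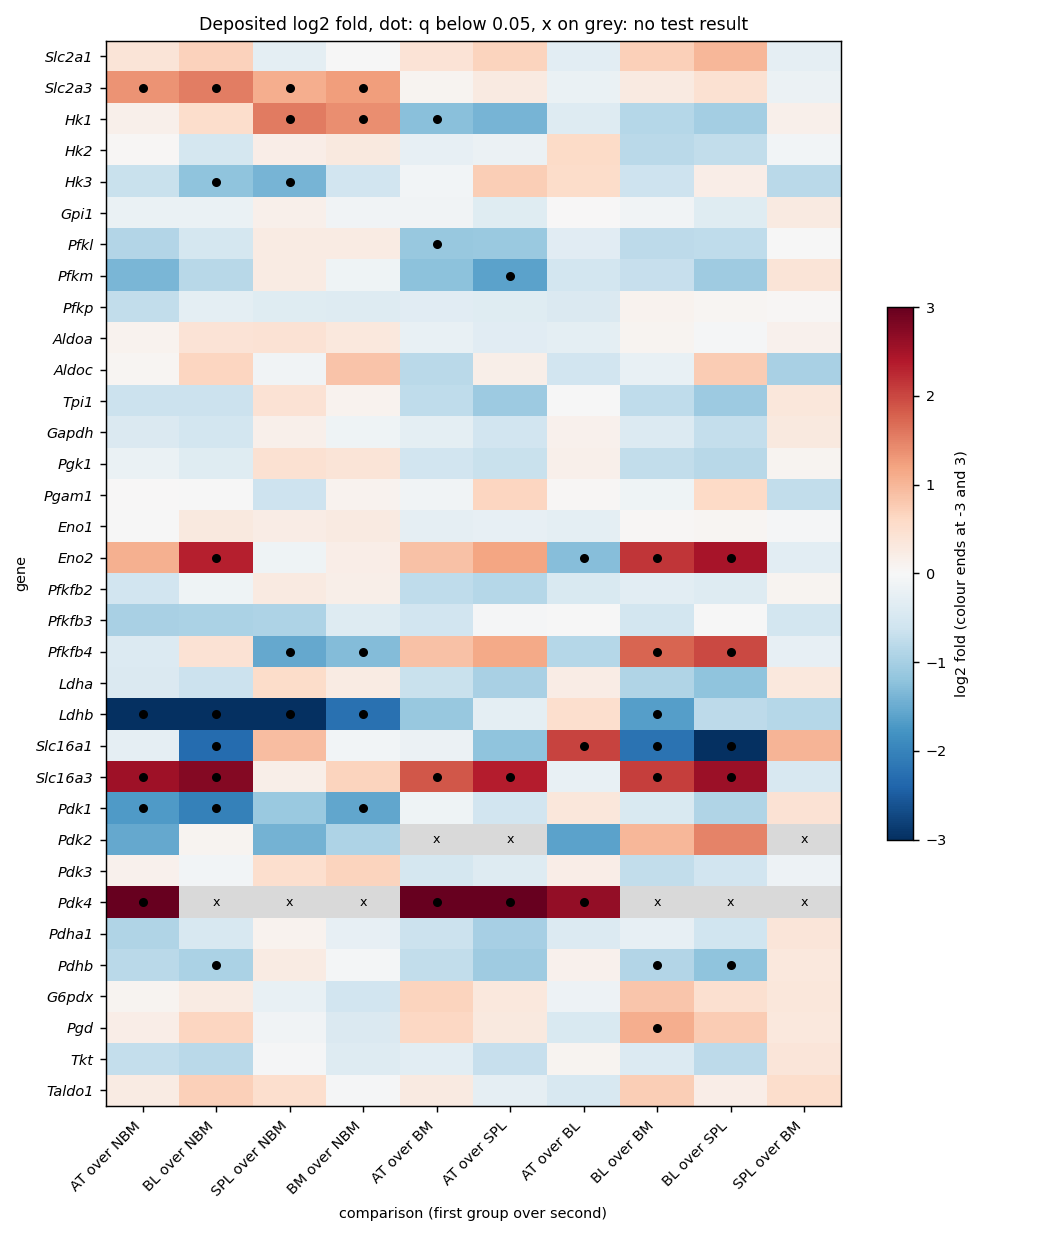
Colour gives the deposited log2 fold of each gene (rows) in each comparison (columns, the first group over the second), and black dots mark calls at q below 0.05. Ldhb is called lower in all 4 comparisons with NBM and Slc2a3 higher in all 4, while Slc16a3 is called higher in AT and BL against NBM, BM and SPL. The grey cells with an x had no test, for Pdk2 in 3 comparisons and Pdk4 in 6.

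The glucose carriers showed 1 gene called at every site. Slc2a3 (chr6:122727809-122801640 in GENCODE M21 on mm10, as for the genes that follow) makes GLUT3, a carrier with high affinity for glucose. It stood at 18.9 ± 5.51 FPKM in AT, 21.6 ± 4.26 in BL, 15.8 ± 3.72 in SPL and 17.9 ± 2.66 in BM, and at 7.45 ± 1.11 in NBM. All 4 LSC groups were above NBM, and the bounds of BL and BM lay apart from those of NBM, whereas those of AT and SPL overlapped them. In bulk RNA, more cells with the transcript and more of it per cell cannot be told apart. The log2 fold over NBM was 1.34 ± 0.47 in AT (q = 0.0262), 1.54 ± 0.36 in BL (q = 0.000278), 1.08 ± 0.40 in SPL (q = 0.0373) and 1.26 ± 0.30 in BM (q = 0.000475), by the authors' deposited table. The SPL call was lost after centring (q = 0.0785). No pair of LSC sites had a call.

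Slc2a1 makes GLUT1, the carrier found in most dividing cells. Its level was 9.02 ± 2.37 FPKM in AT, 11.3 ± 2.17 in BL, 5.66 ± 1.35 in SPL, 6.82 ± 1.06 in BM and 6.93 ± 1.14 in NBM, and it was not called in any comparison of the authors' deposited table. After centring, it was called higher in BL over NBM, over BM and over SPL. The share of Slc2a3 in the summed FPKM of the 2 carriers was 67.7% ± 8.59 in AT, 65.7% ± 6.21 in BL, 73.6% ± 6.52 in SPL, 72.4% ± 4.30 in BM and 51.8% ± 5.54 in NBM.

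Hexokinase traps glucose in the cell, and its 3 genes differed in direction. Hk1 (chr10:62268855-62379908) stood at 10.4 ± 2.89 FPKM in AT, 13.6 ± 2.59 in BL, 27.4 ± 7.76 in SPL and 24.7 ± 3.70 in BM, and at 9.34 ± 1.35 in NBM. The level was high in SPL and BM, and the bounds of BM lay apart from those of NBM and AT. In the authors' deposited table Hk1 rose in SPL over NBM by a log2 fold of 1.55 ± 0.46 (q = 0.00594) and in BM over NBM by 1.40 ± 0.30 (q = 6.29e-05). It fell in AT over BM, with -1.24 ± 0.45 (q = 0.0333) in the authors' deposited table, a call that centring removed (q = 0.274).

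Hk3 (chr13:55005985-55021385) stood at 11.6 ± 3.67 FPKM in AT, 7.91 ± 1.69 in BL, 6.94 ± 2.30 in SPL, 12.2 ± 2.04 in BM and 18.4 ± 2.70 in NBM. The bounds of BL and SPL lay below those of NBM and the others overlapped them. Hk3 fell in BL over NBM (log2 fold -1.21 ± 0.37, q = 0.00895) and in SPL over NBM (-1.40 ± 0.52, q = 0.0378), by the authors' deposited table. The BL call was lost after centring (q = 0.102), and the SPL call was lost when p-values were adjusted within that comparison (q = 0.0629). Hk2, the insulin-regulated form, was low in all groups, from 1.93 ± 0.378 FPKM in BL to 3.41 ± 0.529 in BM, and had no call. Hexokinase 1 thus made 41.9% ± 9.24 of hexokinase FPKM in AT, 57.9% ± 6.33 in BL, 73.0% ± 7.31 in SPL, 61.2% ± 4.79 in BM and 30.7% ± 4.12 in NBM. The deposited locus of Hk3 ran 56.5 kb beyond the annotated gene and covered Unc5a. Since the strand used in counting is not given, reads from the stretch where Hk3 and Unc5a overlap cannot be told apart.

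After hexokinase, the calls in the next 2 steps were 1 for Pfkl and 1 for Pfkm. Gpi1, which turns glucose 6-phosphate into fructose 6-phosphate, lay between 62.1 ± 11.9 FPKM in BL and 80.1 ± 20.98 in SPL. Among the phosphofructokinases, which commit the sugar to glycolysis, Pfkp (platelet type) was the most abundant at 17.4 ± 5.73 FPKM in AT, 23.5 ± 4.82 in BL, 22.4 ± 7.92 in SPL, 21.9 ± 4.32 in BM and 28.8 ± 4.02 in NBM. Pfkl (liver type) stood at 7.29 ± 1.93 FPKM in AT, 9.27 ± 1.76 in BL, 15.7 ± 3.66 in SPL, 15.9 ± 2.35 in BM and 13.3 ± 1.84 in NBM. Pfkm (muscle type) stood at 2.46 ± 0.731 FPKM in AT, 3.58 ± 0.739 in BL, 7.49 ± 1.76 in SPL, 5.76 ± 1.28 in BM and 6.33 ± 1.46 in NBM. Pfkl and Pfkm were lower in AT and BL than elsewhere, with bounds apart between AT and BM for Pfkl and between AT and SPL for Pfkm. Pfkp did not follow that order.

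Pfkl fell in AT over BM (log2 fold -1.13 ± 0.44, q = 0.0478) in the authors' deposited table. Pfkm fell in AT over SPL (log2 fold -1.61 ± 0.55, q = 0.0203), also by the authors' deposited table. Both calls were lost after centring, at q = 0.359 and q = 0.170. The deposited loci of Pfkm and Pfkp reached 53.8 kb and 31.6 kb beyond the genes, over Senp1 and Pitrm1, so their reads may include neighbours.

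The middle of the pathway held no call. Aldoa, the main aldolase, lay between 275 ± 33.5 FPKM in NBM and 373 ± 112 in SPL, and Aldoc, the brain form, between 2.94 ± 0.762 in SPL and 5.75 ± 0.973 in BM. Tpi1, which interconverts the triose phosphates, stood at 40.9 ± 11.1 FPKM in AT, 41.2 ± 7.99 in BL, 87.1 ± 22.1 in SPL, 69.3 ± 10.6 in BM and 64.1 ± 8.19 in NBM. Gapdh, the NADH-forming dehydrogenase, stood at 110.2 ± 29.7 FPKM in AT, 101 ± 19.3 in BL, 165 ± 42.9 in SPL, 134 ± 20.4 in BM and 148 ± 17.9 in NBM. Pgk1, the first ATP-forming step, lay between 76.5 ± 14.6 FPKM in BL and 137 ± 36.7 in SPL, and Pgam1, the mutase, between 34.04 ± 8.56 in SPL and 56.9 ± 8.57 in BM. Tpi1, Gapdh and Pgk1 were lowest in AT and BL, with bounds that overlapped between all groups. Processed pseudogenes of Gapdh, Aldoa, Tpi1, Pgk1, Pgam1, Ldha and Eno1 can share reads with them, which adds uncertainty to these levels. Annotated coding genes also overlap Aldoa (Fam57b), Tpi1 (Spsb2) and Gapdh (Iffo1).

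Enolase, which forms phosphoenolpyruvate, was mostly Eno1, between 203 ± 86.5 FPKM in AT and 250.4 ± 65.9 in BL. Eno2 (chr6:124760053-124769673), the neuronal form, differed between sites at a low level. It stood at 1.5 ± 0.394 FPKM in AT, 3.63 ± 0.806 in BL, 0.658 ± 0.191 in SPL, 0.817 ± 0.166 in BM and 0.715 ± 0.153 in NBM. BL was highest, with bounds apart from those of SPL, BM and NBM but not of AT. In the authors' deposited table Eno2 rose in BL over NBM by a log2 fold of 2.34 ± 0.45 (q = 4.51e-06), over BM by 2.15 ± 0.44 (q = 1.97e-05) and over SPL by 2.46 ± 0.53 (q = 6.21e-05). AT over BL was called lower at -1.27 ± 0.50 (q = 0.0491) in the authors' deposited table, and this call was lost after centring (q = 0.0869). After centring, Eno2 was called higher in AT too, over NBM (q = 0.0140), over BM (q = 0.0304) and over SPL (q = 0.0181). Eno2 was 1.43% ± 0.485 of enolase FPKM in BL and 0.349% ± 0.0904 in NBM.

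**Figure D3:**
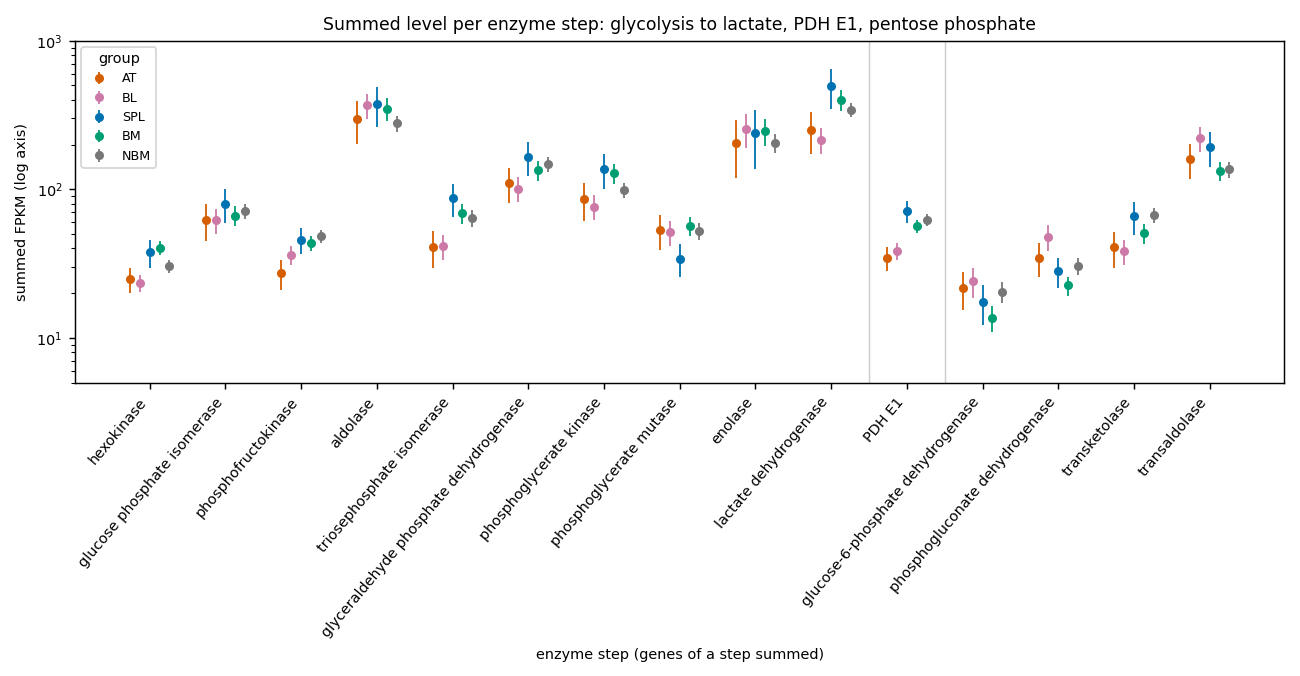
Points give the FPKM of all genes of an enzyme step summed in AT, BL, SPL, BM and NBM (log axis), with bars of 1 standard deviation from the authors' bounds. Grey lines separate glycolysis to lactate, the pyruvate dehydrogenase E1 subunits and the pentose phosphate enzymes. Enolase varied least, with its highest group 1.24 times its lowest, and lactate dehydrogenase most, at 2.31 times.

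The kinase-phosphatases PFKFB make or remove fructose 2,6-bisphosphate, the main activator of phosphofructokinase. Pfkfb4 (chr9:108991778-109032228) stood at 1.87 ± 0.497 FPKM in AT, 3.38 ± 0.700 in BL, 0.857 ± 0.237 in SPL, 1.01 ± 0.193 in BM and 2.50 ± 0.450 in NBM. BL and NBM were high and SPL and BM low, and the bounds of those pairs lay apart. It fell in SPL over NBM (log2 fold -1.54 ± 0.48, q = 0.00894) and in BM over NBM (-1.30 ± 0.38, q = 0.00506) in the authors' deposited table. It rose in BL over BM (1.74 ± 0.41, q = 0.000288) and in BL over SPL (1.98 ± 0.50, q = 0.000887) in the authors' deposited table. After centring, Pfkfb4 was called higher in AT over BM (q = 0.0252) and over SPL (q = 0.0202) as well. Pfkfb3, the inducible form, lay between 1.58 ± 0.477 FPKM in AT and 3.08 ± 0.621 in NBM. Pfkfb2, the heart form, lay between 0.370 ± 0.161 FPKM in AT and 0.668 ± 0.279 in SPL, and neither was called. The annotated coding genes Gm29427 and Yod1 overlap Pfkfb2.

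Lactate formation and transport held 15 of the 45 calls. Ldha was among the most abundant of the genes at 251 ± 79.3 FPKM in AT, 214 ± 41.9 in BL, 495 ± 151 in SPL, 399.8 ± 65.0 in BM and 337 ± 37.9 in NBM. It was highest in SPL and BM and was not called in any comparison of the authors' deposited table. Ldhb (chr6:142490249-142507957) stood at 0.593 ± 0.215 FPKM in AT, 0.418 ± 0.115 in BL, 0.721 ± 0.233 in SPL and 1.31 ± 0.285 in BM, and at 6.13 ± 1.15 in NBM. The bounds of NBM lay above those of all 4 LSC groups. The counts behind these values were 58.4 in AT, 36.4 in BL, 23.0 in SPL, 89.4 in BM and 517 in NBM.

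Ldhb fell in each LSC group over NBM, with log2 folds of -3.37 ± 0.59 in AT (q = 4.48e-07), -3.88 ± 0.48 in BL (q = 1.99e-13), -3.09 ± 0.54 in SPL (q = 4.21e-07) and -2.23 ± 0.41 in BM (q = 2.66e-06), in the authors' deposited table. It was also lower in BL over BM (-1.65 ± 0.51, q = 0.00889) in the authors' deposited table, which was lost after centring (q = 0.0604). As linear sizes, the falls over NBM were 10.3-fold in AT, 14.7-fold in BL, 8.51-fold in SPL and 4.69-fold in BM in the authors' deposited table. The ratio of Ldha to Ldhb FPKM was 424 in AT, 513 in BL, 688 in SPL and 305 in BM, and 54.9 in NBM. Ldha made 98.2% ± 0.385 of lactate dehydrogenase FPKM even in NBM.

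Lactate crosses the membrane through Slc16a1 (MCT1), which works in both directions, and Slc16a3 (MCT4), known for export from glycolytic cells. Slc16a3 (chr11:120948480-120960868) had 11.1 ± 3.37 FPKM in AT and 12.9 ± 2.72 in BL, against 2.18 ± 0.695 in SPL, 3.06 ± 0.545 in BM and 1.92 ± 0.433 in NBM. AT and BL were high, with bounds apart from those of all 3 others. In the authors' deposited table Slc16a3 rose in AT over NBM by a log2 fold of 2.54 ± 0.54 (q = 6.76e-05), over BM by 1.86 ± 0.51 (q = 0.00248) and over SPL by 2.35 ± 0.63 (q = 0.00222). For BL the folds were 2.75 ± 0.44 over NBM (q = 3.66e-08), 2.08 ± 0.40 over BM (q = 5.38e-06) and 2.57 ± 0.55 over SPL (q = 6.54e-05), in the authors' deposited table. AT and BL did not differ by a call. The sums of macrophage and monocyte markers and of adipocyte markers were also higher in AT and BL than elsewhere, as given above. In AT over NBM, 3 of 10 macrophage and monocyte markers were called higher (7.94% of all tested genes) and 4 lower (15.5%), by the authors' deposited table. In BL over NBM, 5 of 10 were called higher (11.5%) and 2 lower (22.9%), by the authors' deposited table. The part of these markers in the Slc16a3 level was not tested.

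Slc16a1 (chr3:104638668-104658462) stood at 0.894 ± 0.238 FPKM in AT, 0.220 ± 0.0516 in BL, 2.06 ± 0.523 in SPL, 1.01 ± 0.186 in BM and 1.08 ± 0.209 in NBM. BL lay below each of the others, with bounds apart from all 4. It fell in BL over NBM (log2 fold -2.30 ± 0.44, q = 5.04e-06), over BM (-2.20 ± 0.43, q = 8.24e-06) and over SPL (-3.23 ± 0.50, q = 6.98e-09), by the authors' deposited table. AT over BL was called higher at 2.02 ± 0.51 (q = 0.000994) in the authors' deposited table. The ratio of Slc16a3 to Slc16a1 FPKM was 12.4 in AT, 58.7 in BL, 1.06 in SPL, 3.02 in BM and 1.78 in NBM.

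The sequences before these genes are shown because Slc16a3 and Slc16a1 moved in opposite directions in BL, and Ldhb fell while Ldha had no call; the 4 were picked after their values were seen. Each is the 250 bases before a RefSeq gene start (GRCm38.p6), 5′ to 3′ on the gene's strand, lower case, with capitals for ACGTG, the core of a hypoxia response element, GCGTG, its variant, and CACGTG, the E-box bound by MYC and related factors, on either strand.
Slc16a3 (chr11:120948817-120949066, + strand): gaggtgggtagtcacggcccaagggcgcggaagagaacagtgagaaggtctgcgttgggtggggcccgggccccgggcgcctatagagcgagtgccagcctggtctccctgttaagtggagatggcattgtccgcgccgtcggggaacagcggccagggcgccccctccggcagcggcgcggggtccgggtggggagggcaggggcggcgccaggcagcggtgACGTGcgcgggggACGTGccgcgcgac
Slc16a1 (chr3:104638414-104638663, + strand): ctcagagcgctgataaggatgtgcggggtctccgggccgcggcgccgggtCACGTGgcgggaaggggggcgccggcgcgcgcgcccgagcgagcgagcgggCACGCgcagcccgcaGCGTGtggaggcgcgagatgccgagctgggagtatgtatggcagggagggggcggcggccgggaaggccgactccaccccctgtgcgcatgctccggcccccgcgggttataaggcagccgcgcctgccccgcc
Ldha (chr7:46845554-46845803, + strand): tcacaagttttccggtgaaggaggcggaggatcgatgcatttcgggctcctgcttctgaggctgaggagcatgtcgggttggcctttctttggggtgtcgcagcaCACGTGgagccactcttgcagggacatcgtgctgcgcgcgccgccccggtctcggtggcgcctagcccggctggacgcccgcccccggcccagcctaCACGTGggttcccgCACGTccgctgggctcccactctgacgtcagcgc
Ldhb (chr6:142507958-142508207, - strand): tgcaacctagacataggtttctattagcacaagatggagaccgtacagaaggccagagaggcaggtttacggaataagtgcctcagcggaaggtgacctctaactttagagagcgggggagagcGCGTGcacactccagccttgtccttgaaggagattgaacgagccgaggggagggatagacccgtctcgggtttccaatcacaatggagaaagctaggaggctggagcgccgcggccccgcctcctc
The table holds another Ldha start, not printed, with 0 ACGTG, 0 CACGTG and 1 GCGTG in its 250 bases (chr7:46846832-46847081). Of the 34 genes, 33 had a RefSeq promoter in the table used, with 49 starts in all, and Slc2a3 had none. In the 300-base window that also takes in the bases after the start, ACGTG occurred in 23 of the 49 (46.9%), against 19.6% of 32851 windows of all genes. GCGTG occurred in 30 (61.2%, against 32.4% of all) and CACGTG, which contains ACGTG, in 6 (12.2%, against 7.15%). These are descriptions with no test, and several starts of a gene share sequence. A match is not a binding site, and a window without one says only that these letters are not in it.

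**Figure D4:**
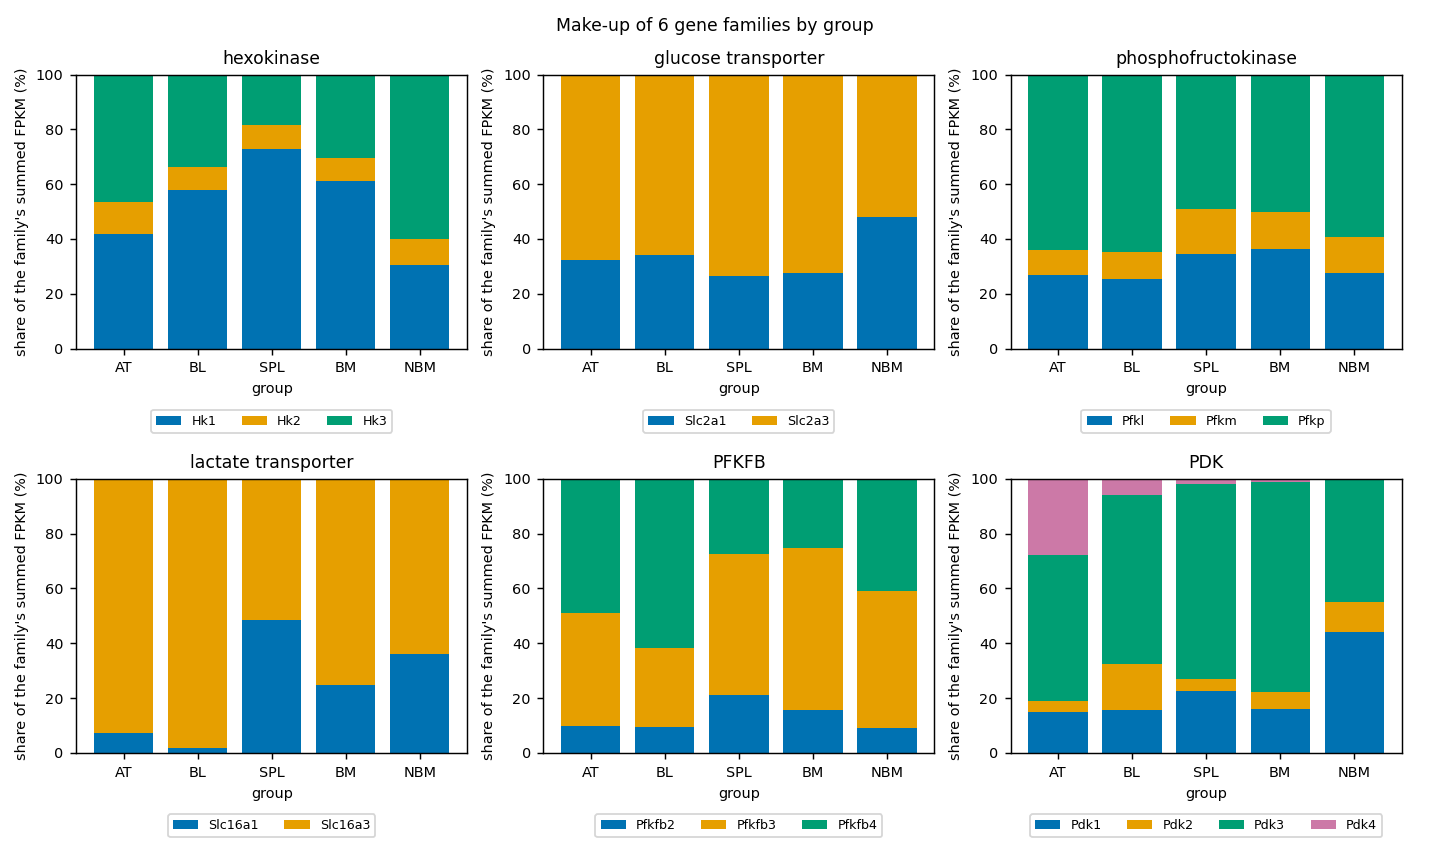
Stacked bars give each gene's share of its family's summed FPKM in AT, BL, SPL, BM and NBM. Hk1 ranges from 30.7% in NBM to 73.0% in SPL, Slc16a3 from 51.4% in SPL to 98.3% in BL, and Pdk4 from 0.331% in NBM to 28.0% in AT.

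At the branch into mitochondria, 1 of the 2 subunits of pyruvate dehydrogenase E1, Pdhb, was called lower in BL. Pdhb (chr14:8165996-8173025) stood at 18.1 ± 4.54 FPKM in AT, 16.5 ± 3.10 in BL, 37.8 ± 8.96 in SPL, 30.5 ± 4.51 in BM and 31.7 ± 4.43 in NBM. AT and BL were low, and of all pairs only BL and NBM had bounds that lay apart. Pdhb fell in BL over NBM (log2 fold -0.95 ± 0.34, q = 0.0288), over BM (-0.89 ± 0.35, q = 0.0480) and over SPL (-1.20 ± 0.44, q = 0.0323) in the authors' deposited table, and each of these was lost after centring (q = 0.262, 0.347 and 0.220). Pdha1 stood at 16.6 ± 4.44 FPKM in AT, 21.9 ± 4.21 in BL, 33.2 ± 7.87 in SPL, 25.9 ± 3.86 in BM and 30.9 ± 3.996 in NBM, and was not called. Its deposited locus ran 134 kb beyond the gene, over Map3k15.

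Pdk1 (chr2:71873224-71903858), a kinase induced by HIF, stood at 0.278 ± 0.0858 FPKM in AT, 0.221 ± 0.0519 in BL, 0.411 ± 0.116 in SPL and 0.304 ± 0.0661 in BM, and at 0.896 ± 0.177 in NBM. All 4 LSC groups were below NBM, with bounds of SPL overlapping it and the others apart. It fell in AT over NBM (log2 fold -1.69 ± 0.53, q = 0.0103), in BL over NBM (-2.02 ± 0.44, q = 9.64e-05) and in BM over NBM (-1.56 ± 0.42, q = 0.00243), in the authors' deposited table, and the AT call was lost after centring (q = 0.0913). Pdk3 was the most abundant kinase at 0.995 ± 0.308 FPKM in AT, 0.866 ± 0.187 in BL, 1.29 ± 0.367 in SPL, 1.44 ± 0.282 in BM and 0.909 ± 0.200 in NBM, with no call. Pdk2 was at 0.0759 to 0.232 FPKM in the 5 groups, with 7 of 10 tests run and no call.

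Pdk4 (chr6:5483351-5496309), the kinase induced by fasting and fatty acids, stood at 0.523 ± 0.172 FPKM in AT, 0.0842 ± 0.0274 in BL, 0.0335 ± 0.0221 in SPL, 0.0247 ± 0.0127 in BM and 0.00672 ± 0.00526 in NBM. The counts behind these values were 158 in AT, 22.1 in BL, 2.90 in SPL, 4.85 in BM and 1.63 in NBM, so SPL and NBM stood under 3 counts, the least taken here as a measured level. AT stood apart from each other group by its bounds. The ratio of AT FPKM to the other group's, with a 95% exact interval of the counts that covers counting error only, was 6.22 (3.98 to 10.2) over BL, 15.6 (5.05 to 73.7) over SPL, 21.2 (8.59 to 63.9) over BM and 77.8 (17.3 to 528) over NBM. Each of the 4 was called in the authors' deposited table, at q = 0.000991, 0.00206, 1.56e-05 and 8.39e-06. No test was run for the other 6 pairs. In AT over BM, 6 of 7 stromal, 3 of 4 adipocyte and 3 of 5 endothelial markers tested were called higher (7.24% of all tested genes), by the authors' deposited table. Of the 8 adipocyte markers, only 2 were tested in BL over NBM and 2 in BL over BM. These were called higher (11.5% and 10.5% of all tested genes), by the authors' deposited table. Under 0.1 FPKM were 4 of the 8 in AT and 6 in BL, and Adipoq, Lep and Plin1 were near 0 in AT, as given above. The part of these markers in the Pdk4 level was not tested.

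**Figure D5:**
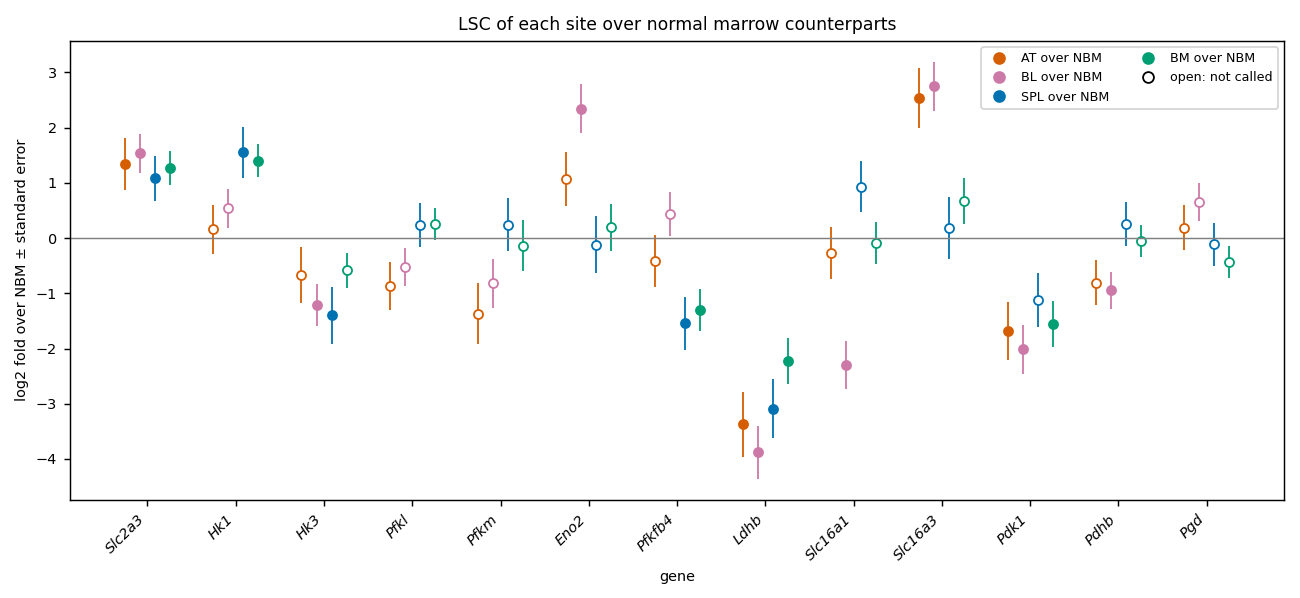
Points give the deposited log2 fold over NBM of the 13 genes other than Pdk4 that were called in any comparison, for AT, BL, SPL and BM from left to right, with bars of 1 standard error. Filled points were called at q below 0.05 and open points were not. Slc2a3 lies above 0 and Ldhb below it at all 4 sites, whereas Slc16a3 is raised in AT and BL and Hk1 in SPL and BM.

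The pentose phosphate enzymes had 1 call. Pgd (chr4:149149991-149166771), which makes NADPH and ribulose 5-phosphate, stood at 34.6 ± 8.84 FPKM in AT, 47.7 ± 9.44 in BL, 28.1 ± 6.59 in SPL, 22.5 ± 3.32 in BM and 30.3 ± 4.03 in NBM. It was highest in BL, with overlapping bounds, and rose in BL over BM (log2 fold 1.08 ± 0.36, q = 0.0156) in the authors' deposited table. G6pdx, the first and rate-limiting step, stood at 21.6 ± 6.18 FPKM in AT, 24.2 ± 5.52 in BL, 17.4 ± 5.23 in SPL, 13.7 ± 2.71 in BM and 20.4 ± 3.18 in NBM, in the same order of BL first and BM last. Taldo1, transaldolase, lay between 133 ± 20.1 FPKM in BM and 222 ± 42.6 in BL, and Tkt, transketolase, between 38.2 ± 7.44 in BL and 66.8 ± 7.98 in NBM. Tkt and Taldo1 had no call either. After centring, G6pdx (q = 0.0382) and Taldo1 (q = 0.0138) were called higher in BL over BM, Taldo1 (q = 0.00957) and Pgd (q = 0.0213) in BL over NBM, and Pgd (q = 0.0478) in BL over SPL. The deposited locus of G6pdx ran 40.8 kb beyond the gene, over Ikbkg.

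A list of 53 further symbols of these pathways, of which 48 were found, had more called lower than higher where AT or BL was set against SPL or BM, as did all genes. With the share of all tested genes in brackets, called higher and lower were 1 (7.24%) and 10 (15.5%) of 44 tested in AT over BM. They were 2 (7.2%) and 9 (17.9%) of 44 in AT over SPL and 2 (10.5%) and 7 (22.8%) of 44 in BL over BM, by the authors' deposited table. In BL over SPL they were 1 (10.2%) and 8 (23.1%) of 44, and in AT over BL 2 (4.01%) and 2 (2.51%) of 44, by the authors' deposited table. Against NBM the counts were 3 (7.94%) and 5 (15.5%) of 43 in AT and 6 (11.5%) and 8 (22.9%) of 42 in BL, in the authors' deposited table. They were 5 (6.37%) and 1 (6.19%) of 42 in SPL and 3 (8.17%) and 1 (7.85%) of 43 in BM, in the authors' deposited table. SPL over BM had 0 of 43 (1.19% of all genes higher and 1.5% lower) by the authors' Cuffdiff test. Pkm, the final step of glycolysis, stood between 303 FPKM in NBM and 373 in SPL and was not called.

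Prps1 and Prps2, which turn ribose phosphate into the nucleotide precursor PRPP, were low in AT and BL. Prps1 stood at 9.12 FPKM in AT, 7.93 in BL, 45.9 in SPL, 28.5 in BM and 27.7 in NBM, and Prps2 stood at 2.87 FPKM in AT, 2.67 in BL, 11.9 in SPL, 9.38 in BM and 10.2 in NBM. In AT over BM both fell, with log2 folds of -1.65 ± 0.44 for Prps1 (q = 0.00226) and -1.71 ± 0.47 for Prps2 (q = 0.00302) in the authors' deposited table. The median fold of all tested genes was -0.48 in that comparison. Calls of single genes outside the 34, here and among the regulators below, were not checked after centring. Bpgm, the 2,3-bisphosphoglycerate enzyme of red cells, was at 0.875 FPKM in AT and 3.69 in BM (-2.08 ± 0.49, q = 0.000381, in the authors' deposited table). Pfkfb1, a further kinase-phosphatase, was at 0.257 FPKM in AT and 1.27 in BM (-2.30 ± 0.61, q = 0.00194, in the authors' deposited table). Hkdc1, the neighbour of Hk1, stood at 2.41 FPKM in BM and 0.856 in NBM (1.49 ± 0.38, q = 0.00119, in the authors' deposited table). Me1, cytosolic malic enzyme, stood at 0.517 FPKM in BM and 0.0384 in NBM (3.75 ± 0.64, q = 2.52e-07), and Ldhd, which oxidises D-lactate, at 1.91 FPKM in BM and 0.383 in NBM (2.32 ± 0.44, q = 4.86e-06), in the authors' deposited table. Emb, a partner of the lactate carriers, stood at 41.6 FPKM in BM and 73.5 in NBM and fell (-0.82 ± 0.28, q = 0.0207) in the authors' deposited table.

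Regulators of the pathway were counted in the same way, with the share of all tested genes called the same way in brackets. Of 26, called higher and lower were 2 (7.24%) and 1 (15.5%) of 23 tested in AT over BM, by the authors' deposited table. They were 2 (10.5%) and 3 (22.8%) of 19 in BL over BM and 1 (7.2%) and 2 (17.9%) of 23 in AT over SPL. In BL over SPL they were 4 (10.2%) and 2 (23.1%) of 19, and in AT over BL 2 (4.01%) and 0 (2.51%) of 22, by the authors' deposited table. Over NBM they were 3 (7.94%) and 2 (15.5%) of 23 in AT and 2 (11.5%) and 2 (22.9%) of 21 in BL, by the authors' deposited table. For SPL over NBM they were 0 (6.37%) and 3 (6.19%) of 21, and for BM over NBM 0 (8.17%) and 2 (7.85%) of 21. SPL over BM had 0 of 19 (1.19% of all genes higher and 1.5% lower), by the authors' deposited table. Epas1, the hypoxia factor HIF-2 alpha, stood at 0.721 FPKM in AT, 0.0560 in BL, 0.0177 in SPL, 0.0345 in BM and 0.135 in NBM (AT over BM 4.38 ± 0.73, q = 8.52e-08, in the authors' deposited table). Nfe2l2, the NRF2 factor, stood at 38.0 FPKM in AT and 13.3 in BM (1.51 ± 0.44, q = 0.00503, in the authors' deposited table). Myc stood at 11.1 FPKM in AT, 5.90 in BL, 32.7 in SPL, 33.5 in BM and 39.2 in NBM, and fell in AT over BM (-1.60 ± 0.45, q = 0.00338) in the authors' deposited table. Egln1, an oxygen sensor that marks HIF for destruction, stood at 0.865 FPKM in BM and 1.81 in NBM (-1.06 ± 0.40, q = 0.0402, in the authors' deposited table).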

How the data were processed

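RNA-seq was measured in 15 libraries, 3 in each of 5 groups. Per the submitters' processing notes, Trimmomatic 0.32, Cufflinks 2.0.2 and Cuffdiff were used with mm10, while which aligner and annotation were used is not given in the sources used here. Deposited by the authors was 1 FPKM per gene and group, pooled over the 3 libraries, with lower and upper bounds 2 standard deviations away. They also deposited an estimated count per gene and group. For each pair of groups the authors deposited a log2 fold, a test statistic (a score), a p-value and a q-value, and their q-values match a Benjamini-Hochberg adjustment taken over all 10 comparisons within 1.70e-06. Because values were pooled, the design's test is the authors' Cuffdiff test, copied as deposited. A call is a tested gene with q below 0.05. Entries merging genes (105) were kept under their first symbol, files' starts were counted from 0, and no column of per-sample values was left out (0). The standard error is the fold divided by the test statistic. Shares, sums and shifts were computed with python 3.11.15, pandas 2.3.3, numpy 2.4.6 and scipy 1.17.1, and figures with matplotlib 3.10.9. The calling and centring steps were tested on simulated data. Other genes named with a fold are up to 4 of each list with the smallest q in AT over BM or BM over NBM. Pkm and the single cell markers were named outside this rule. Members and lists were chosen with earlier results of these data known. Alternatives were other scalings, a pseudocount of 1 or 0.1, a filter at 1 FPKM, adjustment within a comparison and a stricter q.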

Additional observations from a re-analysis of the deposited data

Results flagged for a closer look

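Each gene below differed between 2 LSC sites: its log2 fold over NBM in the first site minus that in the other, which equals the fold of the site comparison, was called in the authors' deposited table. Values are the difference, then the folds over NBM in the first and the other site.

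Between AT and BM, Slc16a3 differed by 1.86 (2.54 in AT and 0.67 in BM), Hk1 by -1.24 (0.16 and 1.40) and Pfkl by -1.13 (-0.87 and 0.26). Between AT and SPL, Slc16a3 differed by 2.35 (2.54 in AT and 0.18 in SPL) and Pfkm by -1.61 (-1.37 and 0.24). Between AT and BL, Slc16a1 differed by 2.02 (-0.27 in AT and -2.30 in BL) and Eno2 by -1.27 (1.07 and 2.34). Pdk4 differed by 4.40 between AT and BM, 3.96 between AT and SPL and 2.64 between AT and BL, and its folds over NBM rest on 1.63 counts in NBM.

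Between BL and BM, Eno2 differed by 2.15 (2.34 in BL and 0.19 in BM), Slc16a3 by 2.08 (2.75 and 0.67), Pfkfb4 by 1.74 (0.44 and -1.30), Pgd by 1.08 (0.65 and -0.43), Slc16a1 by -2.20 (-2.30 and -0.09), Ldhb by -1.65 (-3.88 and -2.23) and Pdhb by -0.89 (-0.95 and -0.06). Between BL and SPL, Slc16a3 differed by 2.57 (2.75 in BL and 0.18 in SPL), Eno2 by 2.46 (2.34 and -0.12), Pfkfb4 by 1.98 (0.44 and -1.54), Slc16a1 by -3.23 (-2.30 and 0.93) and Pdhb by -1.20 (-0.95 and 0.25).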

How the results depend on the processing

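No paired analysis was possible because the deposited columns are pooled over the 3 libraries of a group, and leaving out each replicate gave no value for the same reason. Of 120 counts of called genes under 6 alternatives, 75 stayed within 1.5 times the deposited count and 45 moved; none of the 45 called folds changed direction. In what follows the share of all tested genes called the same way is in brackets. With folds centred on the median of all genes, the counts that moved became 1 lower (6.5%) in AT over NBM, 6 higher (16.4%) and 3 lower (13.9%) in BL over NBM, 1 higher (5.53%) in SPL over NBM, 4 higher (11.8%) and 0 lower (5.06%) in AT over BM, 4 higher (11.1%) and 0 lower (6.92%) in AT over SPL, 0 lower (1.65%) in AT over BL, 7 higher (15.6%) and 1 lower (13.5%) in BL over BM and 5 higher (14.7%) and 1 lower (14.5%) in BL over SPL. Upper quartile scaling gave 1 lower (6.33%) in AT over NBM, 6 higher (16.4%) and 3 lower (13.8%) in BL over NBM, 1 higher (5.46%) in SPL over NBM, 5 higher (12.4%) and 0 lower (4.58%) in AT over BM, 4 higher (12.5%) and 0 lower (5.39%) in AT over SPL, 0 lower (1.64%) in AT over BL, 7 higher (16.6%) and 1 lower (12.4%) in BL over BM and 6 higher (16.3%) and 1 lower (12.9%) in BL over SPL. Total count scaling gave 1 higher (4.67%) in SPL over NBM, 0 lower (7.47%) in AT over BM, 4 higher (11.5%) and 0 lower (6.88%) in AT over SPL, 0 lower (1.14%) in AT over BL, 1 lower (16.6%) in BL over SPL and 1 lower (2.52%) in SPL over BM. A filter at 1 FPKM, which leaves out Pdk1, Pdk4 and Slc16a1 in some comparisons, gave 1 higher (7.34%) in AT over BM, 1 higher (7.51%) in AT over SPL and 0 higher (3.49%) in AT over BL. Adjustment within a comparison gave 1 higher (5.63%) in SPL over NBM, 0 lower (0.843%) in AT over BL and 5 lower (25.3%) in BL over BM. At q below 0.01 there were 1 lower (8.4%) in AT over NBM, 1 higher (4.42%) in SPL over NBM, 0 lower (7.36%) in AT over BM, 0 lower (9.67%) in AT over SPL, 0 lower (0.79%) in AT over BL and 1 lower (16.3%) in BL over SPL. Of the 45 called folds, centring removed 11 calls, total count scaling 7, upper quartile scaling 11, within-comparison adjustment 3 and the stricter q 12. With a pseudocount of 1 added to each FPKM, 24 of the 45 folds moved beyond their standard error and none changed sign; with 0.1, 4 did. The pseudocounts gave folds only, with no calls. None of the 6 alternatives lost the call for Ldhb over NBM at the 4 sites, Slc16a3 in AT and BL over SPL, BM and NBM, Eno2 in BL over NBM, BM and SPL, or Pfkfb4 in its 4 calls. The same held for Slc16a1 in BL over NBM, BM and SPL, Hk1 in SPL and BM over NBM, and Slc2a3 in BL and BM over NBM. Beyond the lost calls named above, the cause was not tested. The 3 pooled libraries and counts of 1.63 to 22.1 for Pdk4 outside AT limit what can be seen for low genes.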
